A study of Mus musculus with 2 samples.

Results

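The 9 CC chemokine ligands *Ccl2*, *Ccl3*, *Ccl4*, *Ccl6*, *Ccl7*, *Ccl8*, *Ccl9*, *Ccl12* and *Ccl24* were followed in single macrophages of the mouse sciatic nerve (SN). They were chosen by name, with earlier results of these data known. All 9 are among the 54838 genes listed for both libraries, of which 21115 had a UMI in a cell of either library. A UMI is a molecular barcode that stands for 1 captured RNA molecule. Macrophages that were CD64+ and CD45int were sorted from the combined, collagenase-digested SNs of 19 male Flt3-Cre LSL-YFP fl/fl mice aged 10 to 12 weeks. In these mice Cre is driven by *Flt3*, so that YFP marks cells whose ancestors passed through *Flt3* expression. The study takes YFP+ macrophages to descend from hematopoietic stem cells (HSCs), and YFP− macrophages from embryonic precursors. All cells of both groups carried both alleles and came from the same pool of mice, and each group was 1 library. The comparison of YFP− and YFP+ cells therefore has no replicates, no test and no p-value, and the intervals in parentheses are 95% intervals that cover counting error alone. Those of levels and ratios take each UMI as a separate draw. They leave out the clustering of UMIs in few cells, and are thus too narrow for ligands that cluster in this way.

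CC chemokines are small secreted proteins with paired cysteines near the N-terminus, which attract leukocytes by binding G protein-coupled receptors of the CCR family. The monocyte chemoattractant proteins, here *Ccl2*, *Ccl7*, *Ccl8* and *Ccl12*, are mostly known as attractants of monocytes, with CCR2 as the main receptor of *Ccl2*, *Ccl7* and *Ccl12*. *Ccl3* and *Ccl4*, the macrophage inflammatory proteins MIP-1α and MIP-1β, attract monocytes and lymphocytes, and CCR1 is a receptor of *Ccl3*. *Ccl6* and *Ccl9* are rodent ligands of CCR1 made by macrophages and other myeloid cells, and *Ccl24* (eotaxin-2) is a ligand of CCR3, the eosinophil receptor. In injured nerve, *Ccl2* and *Ccl3* are known as signals that bring in blood monocytes.

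Cells were barcodes with at least 500 UMIs and 200 genes. This gave 1045 YFP− cells, with 2233 UMIs at the median, and 4053 YFP+ cells, with 1484, and 7 cell barcodes occurred in both libraries. The cells held 2418044 and 6747554 UMIs, which is 66.2% and 72.0% of those in the files, so that 3 counts correspond to 1.24 and 0.445 CPM (counts per 1000000 UMIs). All 9 genes of the sort and of macrophages (*Fcgr1*, *Ptprc*, *Csf1r*, *Cx3cr1*, *Adgre1*, *Itgam*, *Mertk*, *Aif1* and *C1qa*) were above 60 CPM in both libraries. Markers of other cells were also present. The sum of the Schwann cell genes lay within the range of the single ligands given below. Mural cell and fibroblast genes were higher in YFP+ than in YFP− cells. In YFP− and YFP+ cells, the 6 Schwann cell genes summed to 697 and 638 CPM, the 6 mural cell genes to 11.6 and 131 CPM, and the 6 fibroblast genes to 23.6 and 94.6 CPM.

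In the GENCODE M21 annotation of GRCm38, 8 of the 9 genes lie on chromosome 11 in 2 groups. *Ccl2* (chr11:82035571-82037453), *Ccl7* (chr11:82045712-82047525), *Ccl12* (chr11:82101845-82103400) and *Ccl8* (chr11:82115185-82116799) lie within 81229 bp, all on the plus strand. *Ccl9* (chr11:83572919-83578636), *Ccl6* (chr11:83587882-83593087) and *Ccl3* (chr11:83647844-83649355), on the minus strand, and *Ccl4* (chr11:83662584-83664683), on the plus strand, lie within 91765 bp. The groups are 1456119 bp apart. *Ccl24* (chr5:135569937-135573049, minus strand) lies on chromosome 5. No stretch of 31 bases was shared between the annotated transcripts of any 2 of the 9 genes. Of the 31-base stretches of *Ccl9* and *Ccl6*, 3.75% and 1.02% also occurred in transcripts of other genes. *Ccl2* overlaps *Gm17268* and *Ccl6* overlaps *E230016K23Rik*, each on the opposite strand. These partners had 0 and 0 UMIs and 1 and 4 UMIs in YFP− and YFP+ cells.

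The 250 bases before the start site were on hand for 5 of the genes (*Ccl3*, *Ccl6*, *Ccl8*, *Ccl9* and *Ccl12*) from RefSeq on GRCm38.p6. *Ccl8* (chr11:82114935-82115184) and *Ccl12* (chr11:82101595-82101844) are shown, 5′ to 3′ on the plus strand, because the upstream sequences of these neighbours were the most alike of the 10 pairs. They were 54.9% identical in a global alignment, and the other 9 pairs were 44.96% to 49.46% identical. Capitals mark the 3 runs of at least 8 bases that both share in the same order.
Ccl8: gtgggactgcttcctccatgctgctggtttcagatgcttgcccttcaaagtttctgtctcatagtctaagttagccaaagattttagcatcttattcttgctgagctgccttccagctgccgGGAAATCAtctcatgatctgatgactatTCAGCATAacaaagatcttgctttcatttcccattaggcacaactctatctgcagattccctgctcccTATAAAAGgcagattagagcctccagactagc
Ccl12: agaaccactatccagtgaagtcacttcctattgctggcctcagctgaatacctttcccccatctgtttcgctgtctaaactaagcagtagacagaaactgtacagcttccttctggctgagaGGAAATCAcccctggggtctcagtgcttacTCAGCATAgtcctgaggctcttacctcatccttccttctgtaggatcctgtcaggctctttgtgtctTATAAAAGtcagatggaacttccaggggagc

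*Ccl9* (chr11:83578637-83578886, minus strand) is shown because, of the 5 upstream sequences, it alone held a match to the AP-1 motif TGANTCA or to the kappa B motif, which are bound by factors of the immediate early and NF-κB responses described further on. Both strands were searched. Capitals mark the AP-1 match 53 bases before the start, the kappa B match on the other strand at 35 bases, and matches to TATAAA on either strand, 2 of which overlap.
Ccl9: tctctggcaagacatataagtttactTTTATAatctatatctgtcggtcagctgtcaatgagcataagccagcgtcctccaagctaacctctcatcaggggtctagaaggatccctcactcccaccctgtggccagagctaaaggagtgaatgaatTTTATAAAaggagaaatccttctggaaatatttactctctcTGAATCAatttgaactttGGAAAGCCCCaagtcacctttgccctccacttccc

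Among 32851 upstream sequences of this length in the mouse table, 6.75% held the AP-1 motif, 7.25% the kappa B motif and 12.4% TATAAA, which was also present 32 bases before the start of *Ccl8* and 31 bases before that of *Ccl12*. No match to the interferon-response motif (2.98% of all) or to the STAT6 motif (5.85% of all) was in any of the 5 sequences. A match is a description of the letters and not evidence of binding. *Ccl9* itself was not higher in cells rich in immediate early or NF-κB feedback genes, as given further on.

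The 9 ligands together took 0.336% of the UMIs of YFP− cells and 0.324% of those of YFP+ cells. Levels are given as the UMIs of a gene summed over the cells of a library and scaled to 1000000 UMIs (CPM), and since UMIs were counted at the 3′ end of transcripts, gene length does not enter them. *Ccl6* led in both libraries, *Ccl9* and *Ccl12* followed, and *Ccl7* and *Ccl8* came last. In YFP− cells the order was *Ccl6*, *Ccl9*, *Ccl12*, *Ccl3*, *Ccl24*, *Ccl4*, *Ccl2*, *Ccl7* and *Ccl8*, and *Ccl3* and *Ccl24* were the neighbours that did not differ beyond counting error. In YFP+ cells *Ccl24* moved to seventh place, behind *Ccl4* and *Ccl2*. There, *Ccl3* and *Ccl4*, and *Ccl2* and *Ccl24*, did not differ beyond counting error.

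**Figure D1:**
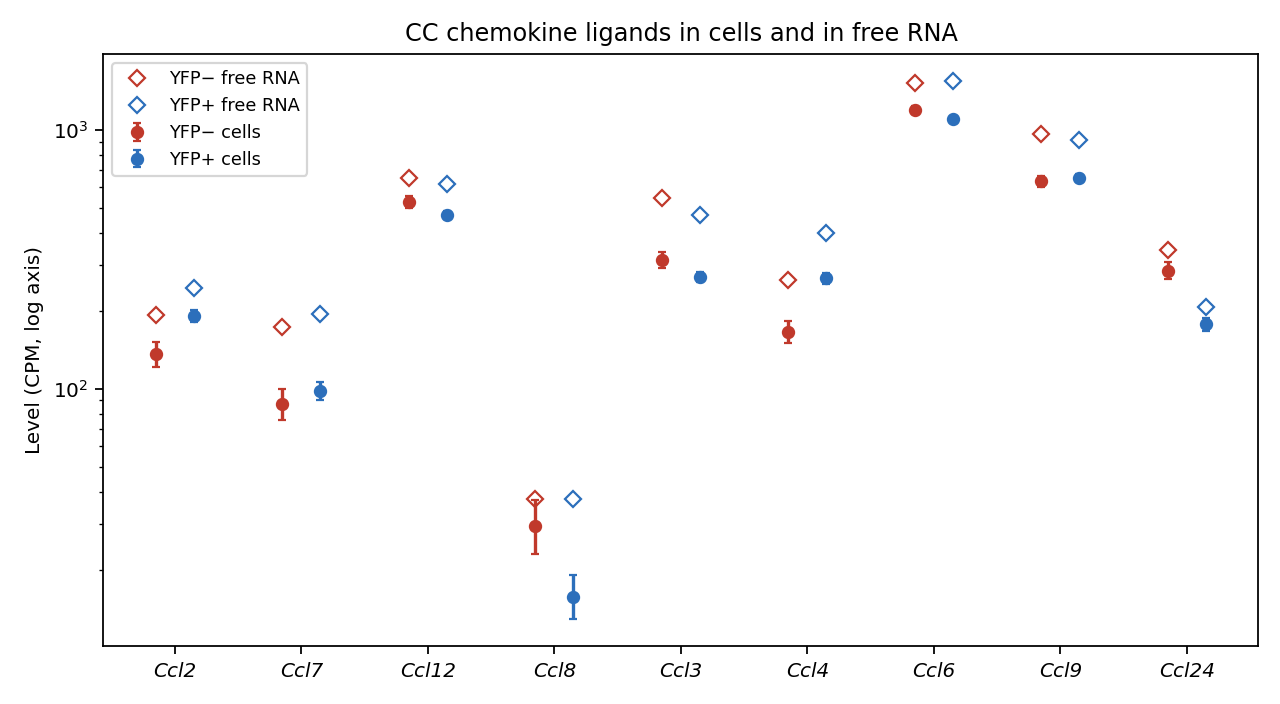
Level of each ligand (CPM, log axis) in YFP− (red) and YFP+ (blue) cells as filled circles with 95% Poisson intervals, and in free RNA of the same library as open diamonds. *Ccl6* is the highest and *Ccl8* the lowest ligand in both libraries, and each diamond lies above its circle.

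Free RNA was measured in barcodes with 10 to 100 UMIs, which hold RNA in solution and debris rather than whole cells. The ligands took 0.468% and 0.462% of the UMIs of free RNA in the YFP− and YFP+ libraries. In the YFP− library, all 9 ligands were higher in free RNA than in cells, as were 54.1% of the 5608 genes with at least 20 CPM in those cells. In the YFP+ library the same held for the 8 ligands that reached 20 CPM (54.0% of 5440 genes), and *Ccl8*, which did not reach it, was at 37.4 CPM in free RNA and 15.7 CPM in cells. The excess was at least 1.5-fold for 4 of 9 ligands in the YFP− library (11% of genes) and for 2 of 8 in the YFP+ library (6.75% of genes). It was largest for *Ccl7*, at 173 CPM in free RNA and 87.3 CPM in YFP− cells, a log2 ratio of 0.98 (0.67 to 1.28), and at 194 and 98.0 CPM in the YFP+ library, a log2 ratio of 0.98 (0.80 to 1.16), *Ccl8* of the YFP+ library apart. RNA of these genes was thus present outside cells, and its part in low counts was not tested.

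Of the 4 monocyte chemoattractant genes, *Ccl12* was the highest. YFP− cells held it at 527 CPM (499 to 557) and YFP+ cells at 470 CPM (454 to 486). The log2 ratio, here always YFP+ over YFP− cells, was −0.17 (−0.26 to −0.07). YFP− cells held *Ccl2* at 136 CPM (121 to 151) and YFP+ cells at 191 CPM (181 to 202). It was higher in YFP+ cells beyond counting error, with a log2 ratio of 0.49 (0.31 to 0.67), and 97.4% of the 5531 genes with a mean of at least 20 CPM had a lower ratio. *Ccl7* was at 87.3 CPM (75.9 to 99.9) and 98.0 CPM (90.6 to 106), and its log2 ratio of 0.17 (−0.06 to 0.39) was within counting error. *Ccl8*, in mice a ligand of CCR8, was seen at 29.4 CPM (22.9 to 37.0) in YFP− cells, on 71 UMIs, and at 15.7 CPM (12.9 to 19.0) in YFP+ cells, on 106 UMIs. Its log2 ratio was −0.86 (−1.29 to −0.43).

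*Ccl3* and *Ccl4*, neighbours 13228 bp apart on opposite strands, differed in their ratios between the libraries. YFP− cells held *Ccl3* at 313 CPM (291 to 336) and YFP+ cells at 269.6 CPM (257 to 282), a log2 ratio of −0.22 (−0.34 to −0.09), and 19.4% of genes had a lower ratio. Outside the cells with most UMIs of *Ccr2*, *S100a4* and related genes, it was −0.11 (−0.23 to 0.02), within counting error, and without the 5% of cells with most UMIs it was −0.096. For *Ccl4*, the levels were 166 and 266 CPM, a log2 ratio of 0.68 (0.52 to 0.84) or 1.60-fold. YFP− cells thus held more *Ccl3* than *Ccl4* UMIs, and YFP+ cells held about equal numbers, 1819 of *Ccl3* and 1798 of *Ccl4*.

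*Ccl6* and *Ccl9* were close to even between the libraries. YFP− cells held *Ccl6* at 1189 CPM (1146 to 1233), the rank of 118 among all genes, and YFP+ cells at 1100.0 CPM (1075 to 1125), the rank of 120. Its log2 ratio was −0.11 (−0.17 to −0.05). *Ccl9* was at 632 CPM (600.2 to 664) and 654 CPM (635 to 673), and its log2 ratio of 0.05 (−0.03 to 0.13) was within counting error. *Ccl24* stood apart from them. YFP− cells held it at 285 CPM (264 to 307) and YFP+ cells at 177 CPM (167 to 188), a log2 ratio of −0.68 (−0.82 to −0.55).

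**Figure D2:**
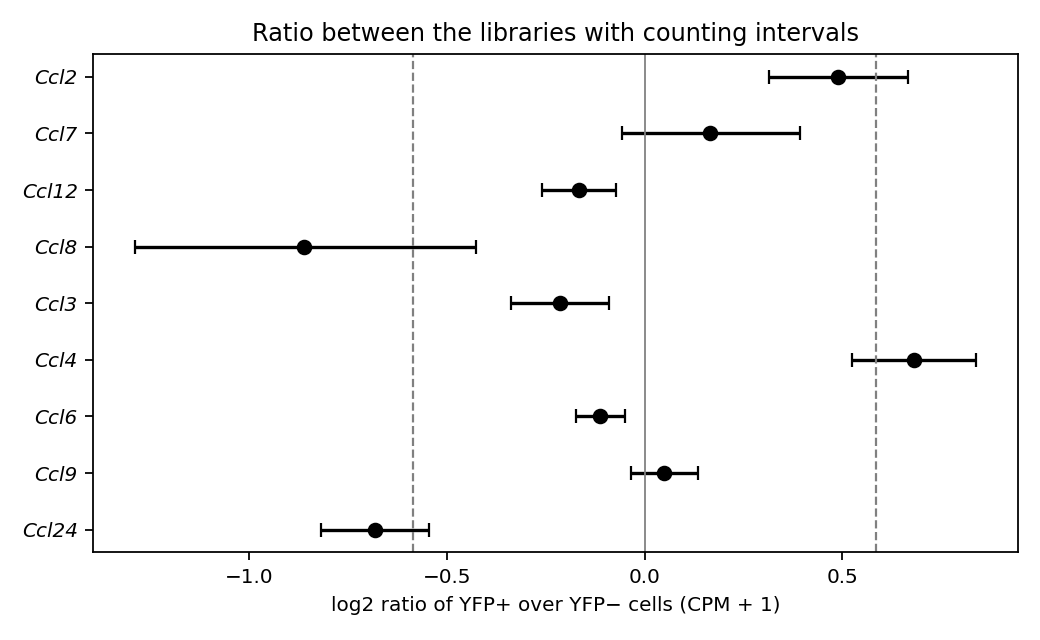
Log2 ratio of each ligand's level (CPM + 1) in YFP+ cells over that in YFP− cells, with 95% counting intervals; dashed lines mark 1.5-fold. *Ccl4* lies above 1.5-fold, *Ccl24* and *Ccl8* lie below it in the other direction, and the intervals of *Ccl7* and *Ccl9* include 0.

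By the measure of at least 1.5-fold in CPM + 1, 1 of 9 ligands (*Ccl4*) was higher in YFP+ cells, where 1.54% of 5531 genes were, and 2 of 9 (*Ccl8* and *Ccl24*) were lower, where 5.77% of genes were. The median log2 ratio of the ligands was −0.11, and that of the 5531 genes was −0.0024. The lower calls of *Ccl8* and *Ccl24* were kept in every alternative run, although *Ccl8* went to −2.33 without the 1% of cells with most of its UMIs. The higher call of *Ccl4* was lost without cells rich in heat shock genes, where its log2 ratio was 0.52 (0.30 to 0.75) and that of *Ccl2* was 0.29 (0.08 to 0.49). The 5 heat shock genes themselves summed to 737 CPM in YFP− cells and to 1129 CPM in YFP+ cells, a log2 ratio of 0.62 (0.54 to 0.69), and their part in the *Ccl4* ratio was not tested beyond this.

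The lower *Ccl24* of YFP+ cells was also seen within subsets of cells. Cells rich in a gene list, here and further on, are those with the most UMIs of the list among 500 UMIs drawn from each cell, with the cutoff set so that at most 10% of all cells reach it. Cells rich in the *Lyve1* list (*Lyve1*, *Folr2*, *Cd163*, *Timd4*, *Mrc1*, *F13a1*, *Gas6*, *Pf4* and *Cbr2*), genes of tissue-resident macrophages, made up 13.3% of YFP− and 9.10% of YFP+ cells. Among them YFP− cells held *Ccl24* at 454 CPM and YFP+ cells at 368 CPM, a log2 ratio of −0.30 (−0.63 to 0.03), which was within counting error. Among the other cells it was at 264 and 160.3 CPM, a log2 ratio of −0.71 (−0.86 to −0.56). *Ccl8* differed between these subsets. In the *Lyve1*-rich cells YFP− cells held it at 46.8 CPM and YFP+ cells at 84.3 CPM, with a log2 ratio of 0.83 (−0.06 to 1.82), and in the other cells it was at 27.1 and 9.53 CPM, with a log2 ratio of −1.42 (−1.92 to −0.90).

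None of the other 9 CC ligands measured reached 20 CPM in either library. The highest were *Ccl25*, with 14.1 CPM in YFP− cells and 16.9 CPM in YFP+ cells, and *Ccl27a*, with 8.68 and 7.85 CPM, while *Ccl1* and *Ccl20* had no UMI in either. Among the CC receptor genes, *Ccr2*, the receptor of *Ccl2*, *Ccl7* and *Ccl12*, reached 124 CPM (110.4 to 139) in YFP− cells and 292 CPM (279 to 305) in YFP+ cells, a log2 ratio of 1.23 (1.05 to 1.40). *Ccr1*, the receptor of *Ccl3*, *Ccl6* and *Ccl9*, was at 30.6 CPM (24.0 to 38.4) and 20.9 CPM (17.6 to 24.6). *Ccr3*, the receptor of *Ccl24*, had 0 UMIs in YFP− and 2 UMIs in YFP+ cells, and *Ccr8* had none, which allows levels of up to 1.24 and 0.445 CPM.

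The ligands differed in how their UMIs were spread over cells. To remove the effect of depth, each cell was thinned to 500 UMIs drawn at random. Of these thinned cells, 69.3% (66.4% to 72.1%) of YFP− and 67.9% (66.4% to 69.3%) of YFP+ cells had a UMI of at least 1 ligand. For *Ccl6* this share was 40.5% of YFP− against 38.0% of YFP+ cells, and for *Ccl9* it was 24.98% and 25.6%. *Ccl12* followed with 13.4% and 12.7%, *Ccl24* with 11.7% and 7.55%, and *Ccl3* with 7.85% and 8.29%. The least often found were *Ccl2*, in 4.78% and 6.14%, *Ccl4*, in 3.44% and 4.86%, *Ccl7*, in 2.68% and 3.16%, and *Ccl8*, in 1.44% and 0.765% of cells. Without thinning, the shares were 76.6% and 66.3% for *Ccl6* and 3.92% and 1.33% for *Ccl8*.

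These shares were below those that 500 UMIs of free RNA alone would give, for *Ccl6* 53.1% and 53.8% and for *Ccl4* 12.3% and 18.0%, so the presence of a single UMI cannot be read as expression by that cell. Cells with at least 1 UMI of mural genes among the 500, which are not shown to be mural cells, were few, at 9 in the YFP− and 40 in the YFP+ library, with medians of 1248 and 1137 UMIs. Of the 40, 22.5% (10.8% to 38.5%) had *Ccl6*, 12.5% (4.19% to 26.8%) had *Ccl9*, 5.0% (0.611% to 16.9%) had *Ccl12* and none had *Ccl4*, which allows up to 7.5% of such cells. For all 9 ligands, the share over all YFP+ cells lay within the wide interval for these 40 cells. By level they were lower, with *Ccl6* at 608 CPM against 1105 CPM in the other YFP+ cells, *Ccl9* at 296 against 657 CPM, *Ccl12* at 140 against 473 CPM, and *Ccl4* without a UMI against 269 CPM. The 9 YFP− cells held *Ccl6* at 1039 CPM and *Ccl12* at 2338 CPM, all 36 UMIs of the latter in 1 cell. These cells therefore give no level of a cell type without chemokines. The high counts in few cells described next do not rest on single UMIs.

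*Ccl4* was found in few cells and at high counts. Its 3 highest YFP− cells had 46, 34 and 28 UMIs, and its 3 highest YFP+ cells had 52, 48 and 46 UMIs. The 1% of cells with most *Ccl4* held 58.4% of its UMIs in YFP− and 53.5% in YFP+ cells. The variance over the mean of the thinned counts (Fano factor, 1 for random draws from even levels) was 5.87 and 4.55, with 7 and 9 genes higher among 3376 and 3214 genes, whose median was 1.04 and 1.01. *Ccl12* had up to 40 UMIs in a YFP− and 32 in a YFP+ cell, and its Fano factor was 3.51 and 2.48. *Ccl3* had up to 53 and 28 UMIs in a cell, with a Fano factor of 2.35 and 2.46. The top 1% of cells held 24.5% and 22.9% of *Ccl12* and 34.2% and 29.5% of *Ccl3* UMIs.

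*Ccl6* and *Ccl9* were spread far more evenly. The 1% of cells with most *Ccl6* held 5.84% of its UMIs in YFP− and 7.52% in YFP+ cells, and for *Ccl9* the shares were 7.34% and 7.96%. Their Fano factors were 1.31 and 1.41 for *Ccl6* and 1.31 and 1.14 for *Ccl9*. *Ccl2* and *Ccl7* were also concentrated, with 30.5% and 36.9% of *Ccl2* and 37.9% and 48.4% of *Ccl7* UMIs in the top 1% of cells. *Ccl24* was closer to the even pattern, with 17.0% and 18.9%. A single YFP− cell with 28 *Ccl24* UMIs, among 1899 in all, was the exception. By the share in the top 1% of cells, *Ccl8* was the most concentrated ligand of YFP+ cells. There, 41 cells held 87.7% of its 106 UMIs, which lay in 54 cells in all. This share also rises where UMIs are few, and the Fano factor of *Ccl8* there was 1.70. That was below those of *Ccl4*, *Ccl12*, *Ccl3*, *Ccl2* and *Ccl7*.

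**Figure D3:**
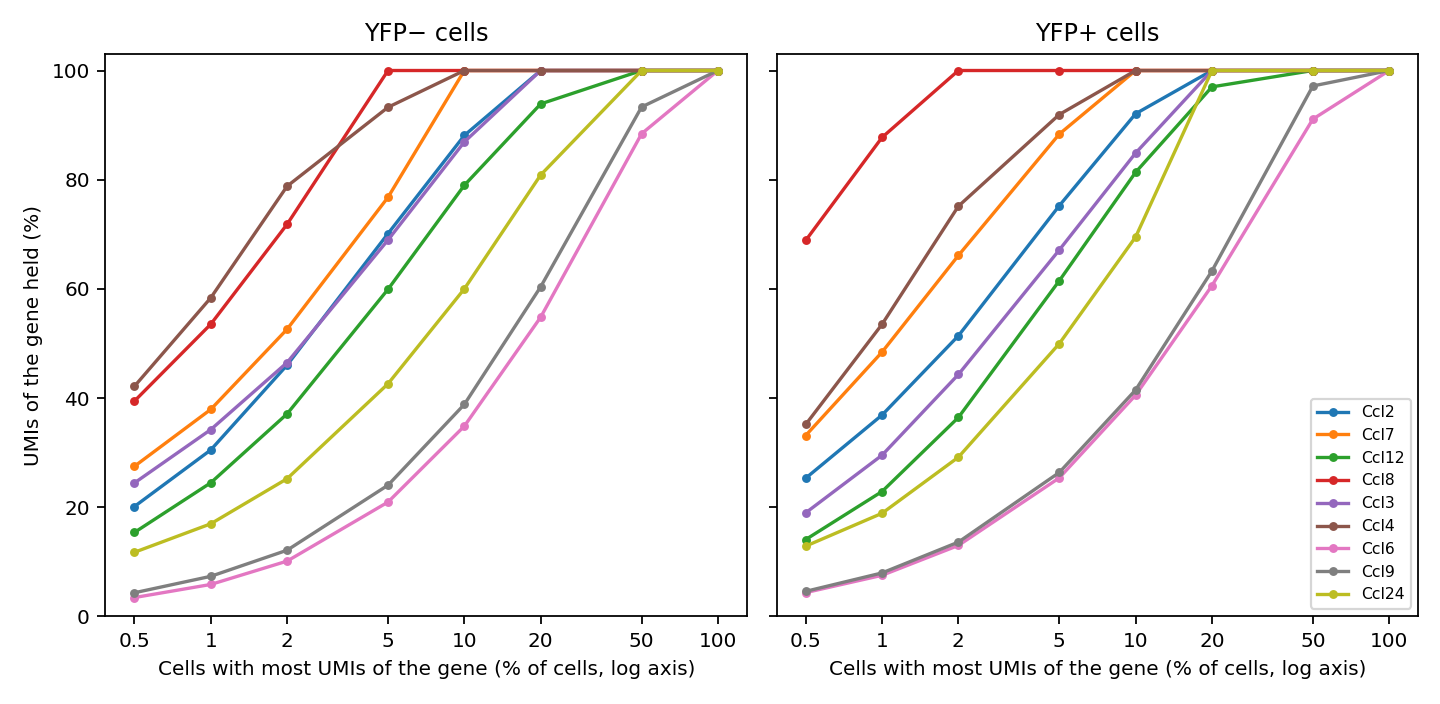
Share of a ligand's UMIs (%) held by the cells with most UMIs of that ligand (% of cells, log axis) in YFP− (left) and YFP+ (right) cells. The curves of *Ccl6* and *Ccl9* lie lowest and those of *Ccl4* and *Ccl8* highest, with 10% of cells holding 34.9% of *Ccl6* and 100% of *Ccl4* UMIs in YFP− cells.

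Across single cells, *Ccl3* and *Ccl4* were found together most closely. The Pearson correlation of log2(thinned UMIs + 1) was 0.38 over the 1045 YFP− cells and 0.44 over the 4053 YFP+ cells. Of the 4332096 pairs among 2944 genes found in at least 2% of thinned cells of both libraries, 0.000416% and 0.000162% reached these values. Cells with both numbered 16, against 2.82 for independent genes, in YFP− cells, which is 5.66 times as many (3.24 to 9.20), and 89 against 16.3 in YFP+ cells, which is 5.45 times as many (4.38 to 6.71). Of the *Ccl4*-containing cells, 44.4% (27.9% to 61.9%) of YFP− and 45.2% (38.1% to 52.4%) of YFP+ cells also had *Ccl3*, compared with 6.54% and 6.41% of the cells without *Ccl4*.

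The pair was plain in single cells with high counts. A YFP− cell of 2076 UMIs had 46 of *Ccl4* and 29 of *Ccl3*, and none of the other 7 ligands. A YFP+ cell of 1883 UMIs had 48 of *Ccl4*, 23 of *Ccl3* and 1 of *Ccl6*. The genes also came apart, since a YFP− cell of 2190 UMIs had 30 of *Ccl3* and none of *Ccl4*, and a YFP+ cell of 5013 UMIs had 52 of *Ccl4*, 4 of *Ccl3* and 12 of *Ccl12*.

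*Ccl2*, *Ccl7* and *Ccl12*, of the same group on chromosome 11, were also found together, with higher r in YFP+ than in YFP− cells. *Ccl2* and *Ccl7* had r = 0.27 in YFP+ cells, where 40 cells had both and 7.86 were expected, which is 5.09 times as many (3.63 to 6.93). In YFP− cells r was 0.19, but it rested on 4 cells with both, against 1.34 expected, and it was −0.03 among YFP− cells of 1000 to 2000 UMIs. *Ccl2* and *Ccl12* had r = 0.13 and 0.19, with 16 cells against 6.70 and 84 against 31.6, which is 2.39 and 2.65 times as many. Over the alternative runs, the highest r of this pair was 0.286 in YFP− and 0.254 in YFP+ cells. *Ccl7* and *Ccl12* had r = 0.08 and 0.18, with 10 cells against 3.75 and 48 against 16.3, which is 2.67 and 2.95 times as many. In YFP− cells, *Ccl2* and *Ccl7* did not stand apart from *Ccl3* and *Ccl4*. There, *Ccl7* had r = 0.19 with *Ccl3*, on 10 cells with both, and 0.12 with *Ccl4*, on 3 cells against 0.965 expected. *Ccl2* had r = 0.13 and 0.15 with them. In YFP+ cells the values were 0.02 and 0.04 for *Ccl7* and 0.12 and 0.10 for *Ccl2*. The YFP− values fell as low as 0.026 and 0.045 for *Ccl7* and 0.033 and 0.085 for *Ccl2* in alternative runs. A single YFP− cell held 16 *Ccl7*, 28 *Ccl3* and 34 *Ccl4* UMIs. All of *Ccl2*, *Ccl7* and *Ccl12* were found in 1 YFP− and in 20 YFP+ cells, against 0.179 and 0.999 expected. A YFP+ cell of 2592 UMIs held 22 of *Ccl7*, 17 of *Ccl2* and 14 of *Ccl12*, and also 14 of *Ccl4*. *Ccl8*, the other listed ligand of this stretch, had r of at most 0.08 with *Ccl2*, *Ccl7* and *Ccl12*. *Ccl7* and *Ccl8* were found together in 3 YFP− cells against 0.402 expected, which is 7.46 times as many (1.54 to 21.8). In YFP+ cells there were 4 against 0.979, which is 4.09 times as many (1.11 to 10.5). These excesses rest on few cells. For *Ccl8* with *Ccl2* or *Ccl12*, the numbers did not differ from those expected beyond counting error. The r of *Ccl8* and *Ccl12*, whose upstream sequences were the most alike of those on hand, was 0.02 and −0.01.

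Of the 28 pairs among the 8 ligands found in at least 2% of cells, 8 had r of at least 0.1 in YFP− cells, where 0.472% of all pairs did, and 7 in YFP+ cells, where 0.0373% did. In both libraries this held for 6 pairs, against 0.0295% of all pairs. These were *Ccl3* with *Ccl4*, *Ccl2* with each of *Ccl7*, *Ccl12*, *Ccl3* and *Ccl4*, and *Ccl6* with *Ccl9*. Over the alternative runs, *Ccl3* with *Ccl4* and *Ccl2* with *Ccl12* stayed above 0.1 in both libraries. Each of the other pairs fell below 0.1 in some run. In YFP+ cells, *Ccl2* with *Ccl4* went as low as 0.055, *Ccl2* with *Ccl3* 0.094 and *Ccl6* with *Ccl9* 0.078. The r of *Ccl6* and *Ccl9* was 0.13 in both libraries, and 133 and 477 cells had both, 1.26 and 1.21 times the number expected. *Ccl6* and *Ccl9* had r between −0.07 and −0.04 with *Ccl3* and *Ccl4*, and *Ccl24* had r of at most 0.09 with any ligand. The most common state was a UMI of 1 ligand, in 38.9% of YFP− and 38.7% of YFP+ cells, while 1.82% and 1.53% had 4 ligands.

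**Figure D4:**
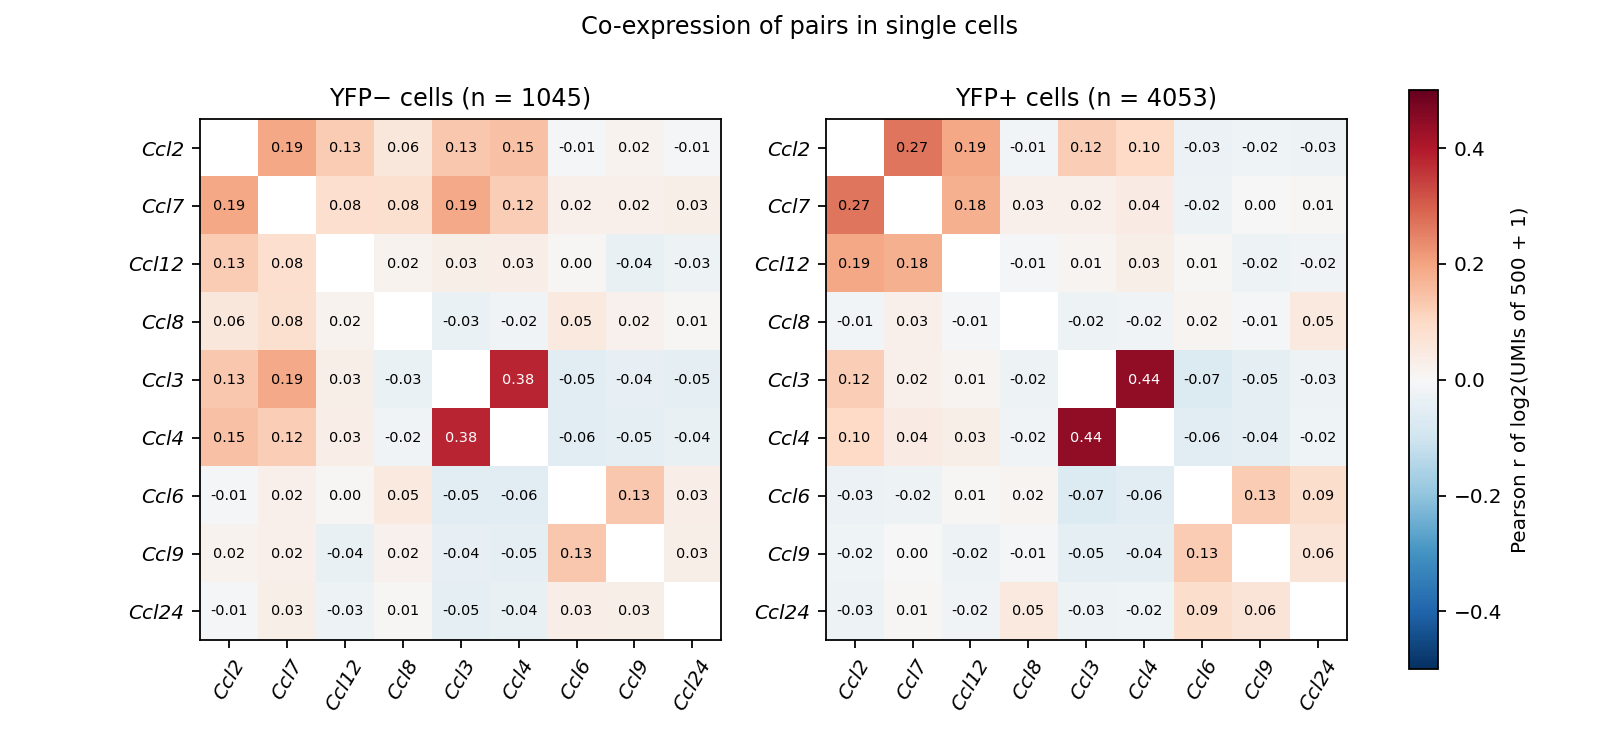
Pearson r of log2(UMIs of 500 + 1) over single cells for each pair of ligands in YFP− and YFP+ cells, with neighbouring genes of chromosome 11 side by side and *Ccl24* last. The highest values are those of *Ccl3* with *Ccl4* (0.38 and 0.44), followed in YFP+ cells by *Ccl2* with *Ccl7* (0.27).

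The genes most like each ligand across cells, by the smaller r of the 2 libraries among 2936 other genes, differed between the ligands. For *Ccl4* they included *Hspa1a*, an inducible heat shock protein (r = 0.24 in YFP− and 0.31 in YFP+ cells), the neutrophil chemoattractant *Cxcl2* (0.44 and 0.19), the stress factor *Atf3* (0.16 and 0.18) and the heat shock co-chaperone *Dnajb1* (0.20 and 0.14). For *Ccl3* they included *Hspa1a* (0.19 and 0.23), *Jun* (0.16 and 0.15), *Junb* (0.16 and 0.15) and *Atf3* (0.12 and 0.14). For *Ccl2* they were *Jun* (0.12 and 0.16), *Hspa1a*, *Hspa1b*, *Dusp1* and *Cxcl2*, with r between 0.08 and 0.16. The genes most like *Ccl12* were *Pf4* (0.09 and 0.16), *Apoe*, *Cxcl2*, *Sdc4* and *Mgl2*, and *Cxcl2* led for *Ccl7* (0.08 and 0.12), ahead of *Etv3*, *Arl6ip1*, *Blvrb* and *Pf4*.

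The values for the other ligands were about as low as those for *Ccl7* and *Ccl12*. For *Ccl24* the most like genes were *Selenop*, the lectin gene *Clec10a*, the folate receptor gene *Folr2*, *Lyve1* and *Ninj1*, with r between 0.07 and 0.12. For *Ccl6* they were the interferon-induced gene *Ifitm3*, *Retnla*, *Crip1*, *Selenop* and *Folr2*, with r between 0.08 and 0.19. For *Ccl9* they were *Crip1*, *Fcer1g*, *C1qb*, *Mrpl33* and *Ltc4s*, with r between 0.05 and 0.09. Values this low in sparse counts, those of *Ccl7* and *Ccl12* among them, order the genes and show no more than that.

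The levels of the ligands in cells rich in a gene list were then set beside those in the other cells of the same library, and log2 ratios from here on are of rich over other cells. Heat shock and immediate early genes are known to rise when tissue is digested with enzymes, as well as in stressed or stimulated cells. Cells rich in heat shock genes (*Hspa1a*, *Hspa1b*, *Dnajb1*, *Hsph1* and *Hspb1*) numbered 72 YFP− and 396 YFP+ cells, and their median depth was 2874 and 1847 UMIs, compared with 2169 and 1457 in the other cells. For these, 2 UMIs of the list among the 500 sufficed. *Hspa1a* alone made up 587 of the list's 737 CPM in YFP− and 866 of its 1129 CPM in YFP+ cells. The levels below thus overlap with the r of *Ccl2*, *Ccl3* and *Ccl4* with *Hspa1a* given above. Among YFP− cells, *Ccl4* was at 1036 CPM in the rich cells against 89.9 CPM in the rest, a log2 ratio of 3.51 (3.22 to 3.80), and at 1353 and 129.5 CPM in YFP+ cells, a log2 ratio of 3.38 (3.24 to 3.51). *Ccl3* was at 1279 and 229 CPM in YFP− cells (log2 ratio 2.48) and at 895 and 191 CPM in YFP+ cells (2.22). *Ccl2* was at 387 and 114 CPM (1.76) and at 603 and 139 CPM (2.11). *Ccl6* was lower in the rich cells, with log2 ratios of −0.66 and −0.72. At least 1.5-fold lower were 2 of 9 ligands (*Ccl6* and *Ccl12*) in the YFP− library, where 21.6% of genes were, and *Ccl6* in the YFP+ library, where 10.1% were.

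At least 1.5-fold higher in heat shock-rich cells were 3 of 9 ligands in the YFP− library, where 9.58% of genes were, and 4 of 8 in the YFP+ library, where 3.57% were. The added ligand of YFP+ cells was *Ccl7*, with a log2 ratio of 1.39 (1.13 to 1.65), compared with −0.19 (−1.04 to 0.56) in YFP− cells. Cells rich in 11 immediate early genes, among them *Fos*, *Jun* and *Egr1*, gave the same counts, 3 of 9 (9.47% of genes) and 4 of 8 (4.26%) higher, and 1 lower in each (20.4% and 8.24% of genes), *Ccl7* in YFP− and *Ccl6* in YFP+ cells. There, *Ccl4* had log2 ratios of 2.61 and 1.97, *Ccl3* of 1.83 and 1.59, and *Ccl2* of 1.54 and 2.22. *Ccl9* was lower in the immediate early-rich cells, at 458 against 648 CPM in YFP− and 501 against 671 CPM in YFP+ cells. Without heat shock-rich cells, the r of *Ccl3* and *Ccl4* was 0.28 in YFP− and 0.30 in YFP+ cells, and without immediate early-rich cells it was 0.28 and 0.39. The part of tissue digestion in these levels was not tested.

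Cells rich in the inflammatory list (*Il1b*, *Il1a*, *Tnf*, *Cxcl1*, *Cxcl2*, *Nlrp3*, *Ptgs2* and *Il6*), 58 YFP− and 332 YFP+ cells, held more *Ccl3* and *Ccl4* and more *Ccl2*, *Ccl7* and *Ccl12*. A single UMI of the list among the 500 sufficed. *Cxcl2* alone made up 297 of the list's 354 CPM in YFP− and 402 of its 489 CPM in YFP+ cells. These are thus mostly cells with *Cxcl2*, and their levels overlap with the r of the ligands with *Cxcl2* given above. At least 1.5-fold higher were 6 of 9 ligands in the YFP− (12.4% of genes) and 5 of 8 in the YFP+ library (3.42%), while 2 (*Ccl6* and *Ccl9*) and 0 were lower (20.6% and 7.37% of genes). *Ccl4* was at 1461 and 78.6 CPM in rich and other YFP− cells, a log2 ratio of 4.199 (3.91 to 4.49), and at 1058 and 182 CPM in YFP+ cells, a log2 ratio of 2.53 (2.395 to 2.67). *Ccl7* had log2 ratios of 2.26 (1.79 to 2.72) and 1.95 (1.71 to 2.20), and *Ccl12* of 1.02 (0.76 to 1.26) and 1.19 (1.07 to 1.32). With list-rich cells limited to 5% of cells, the YFP− ratio of *Ccl12* was 0.52, which is below 1.5-fold. In the YFP− library, single cells held 30.8% of the *Ccl7* and 41.8% of the *Ccl24* UMIs of these 58 cells.

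*Ccl12*, *Ccl24* and *Ccl8* were high in cells rich in other lists. In *Lyve1*-rich cells, the YFP− library held *Ccl12* at 1152 CPM, against 446 CPM in its other cells, a log2 ratio of 1.37 (1.18 to 1.55), and the YFP+ library at 1006 against 421 CPM, a log2 ratio of 1.25 (1.12 to 1.38). *Pf4* alone made up 4677 of the list's 9680 CPM in YFP− and 3975 of its 8301 CPM in YFP+ cells. *Lyve1* itself was at 314 and 230 CPM. The *Ccl12* levels in these cells thus overlap with its r with *Pf4* given above. *Ccl7* was also higher in the rich cells, at 144 against 79.9 CPM in YFP− and 168.5 against 91.6 CPM in YFP+ cells, log2 ratios of 0.84 and 0.87. *Ccl24* had log2 ratios of 0.78 (0.49 to 1.06) and 1.19 (0.97 to 1.41). Those of *Ccl8* were 0.77 (−0.20 to 1.63), on 13 UMIs, and 3.02 (2.46 to 3.56), on 47 UMIs. *Ccl3* and *Ccl4* were lower in these cells, with log2 ratios of −1.33 and −0.91 for *Ccl3* and −0.78 and −1.61 for *Ccl4*. At least 1.5-fold higher were 4 of 9 ligands in the YFP− (9.49% of genes) and 3 of 8 in the YFP+ library (4.56%), and 2 were lower in each (11.8% and 5.96% of genes).

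Cells with a UMI of the C-type lectin genes *Cd209a*, *Cd209b*, *Cd209d*, *Cd209f*, *Cd209g* or of *Fcna* numbered 53 YFP− and 197 YFP+ cells. Among YFP− cells, *Ccl24* was at 725 CPM in these against 265 CPM in the rest, a log2 ratio of 1.45 (1.08 to 1.79), and at 531 and 160.5 CPM in YFP+ cells, a log2 ratio of 1.72 (1.47 to 1.96). *Ccl8* was at 172 and 22.9 CPM in YFP− cells, a log2 ratio of 2.85 (2.005 to 3.63), and at 101 and 11.6 CPM in YFP+ cells, a log2 ratio of 3.01 (2.38 to 3.61), on 18 and 31 UMIs. *Ccl6* was higher as well, with log2 ratios of 0.78 and 0.63. *Ccl12* was not, at 467 against 530 CPM in YFP− and 248 against 480 CPM in YFP+ cells, log2 ratios of −0.18 and −0.95. *Ccl4* had no UMI in the 53 YFP− cells, and was at 65.2 CPM in these and 276 CPM in the other YFP+ cells. In all, 4 of 9 ligands were at least 1.5-fold higher in the YFP− (15.5% of genes) and 2 of 8 in the YFP+ library (7.89%), while 3 and 4 were lower (23.9% and 11.4% of genes).

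Cells rich in *Ccr2*, *S100a4*, *S100a6*, *Plac8* and *Ly6c2*, genes of monocytes and monocyte-derived cells, were 37 YFP− and 365 YFP+ cells, although *Plac8* had no UMI in any cell and *Ly6c2* at most 1. In YFP+ cells, 6 of 8 ligands were at least 1.5-fold lower in these cells, where 6.69% of genes were, and none was higher (3.84%). The lower call of *Ccl24*, with a log2 ratio of −0.60 (−0.94 to −0.27), was lost with list-rich cells limited to 5% of cells, where its ratio was 0.13. *Ccl12* was at 169 CPM in the rich cells, against 502 CPM outside them, a log2 ratio of −1.56 (−1.85 to −1.29), and *Ccl7* had a log2 ratio of −1.73 (−2.42 to −1.10). *Ccl9* went the other way, at 839 and 634 CPM, a log2 ratio of 0.40 (0.27 to 0.53). In YFP− cells 5 of 9 ligands were lower (29.4% of genes), and *Ccl3* was higher (16.6% of genes). *Ccl12* was at 132 and 541 CPM, a log2 ratio of −2.03 (−3.02 to −1.19) on 11 UMIs. The other lower calls, of *Ccl2*, *Ccl4*, *Ccl7* and *Ccl8*, rested on only 3, 7, 0 and 1 UMIs in the 37 rich cells.

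Cells rich in genes that NF-κB induces to limit its own activity, among them *Nfkbia* and *Tnfaip3*, were 42 YFP− and 258 YFP+ cells. They held *Ccl4* at 1223 CPM, against 119 CPM in the other YFP− cells, a log2 ratio of 3.35, and at 1071 against 203 CPM in YFP+ cells. A single cell held 46 of the 125 *Ccl4* UMIs in the rich YFP− cells. *Ccl3* was at 1164 against 275 CPM, a log2 ratio of 2.07, and at 741 against 232 CPM, a log2 ratio of 1.67. With list-rich cells limited to 5% of cells, the YFP− ratio of *Ccl3* was 0.43 and that of *Ccl4* 2.18. Over both limits, the log2 ratios of *Ccl9* lay between −0.57 and −0.35 in YFP− and between −0.46 and −0.30 in YFP+ cells. Cells rich in MHC class II genes, which macrophages use to present antigen, were 53 YFP− and 416 YFP+ cells. There, *Ccl24* was at 89.9 against 187 CPM in YFP+ cells, a log2 ratio of −1.05 (−1.44 to −0.68), and its ratio in YFP− cells, −0.48 (−1.19 to 0.16), was within counting error.

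**Figure D5:**
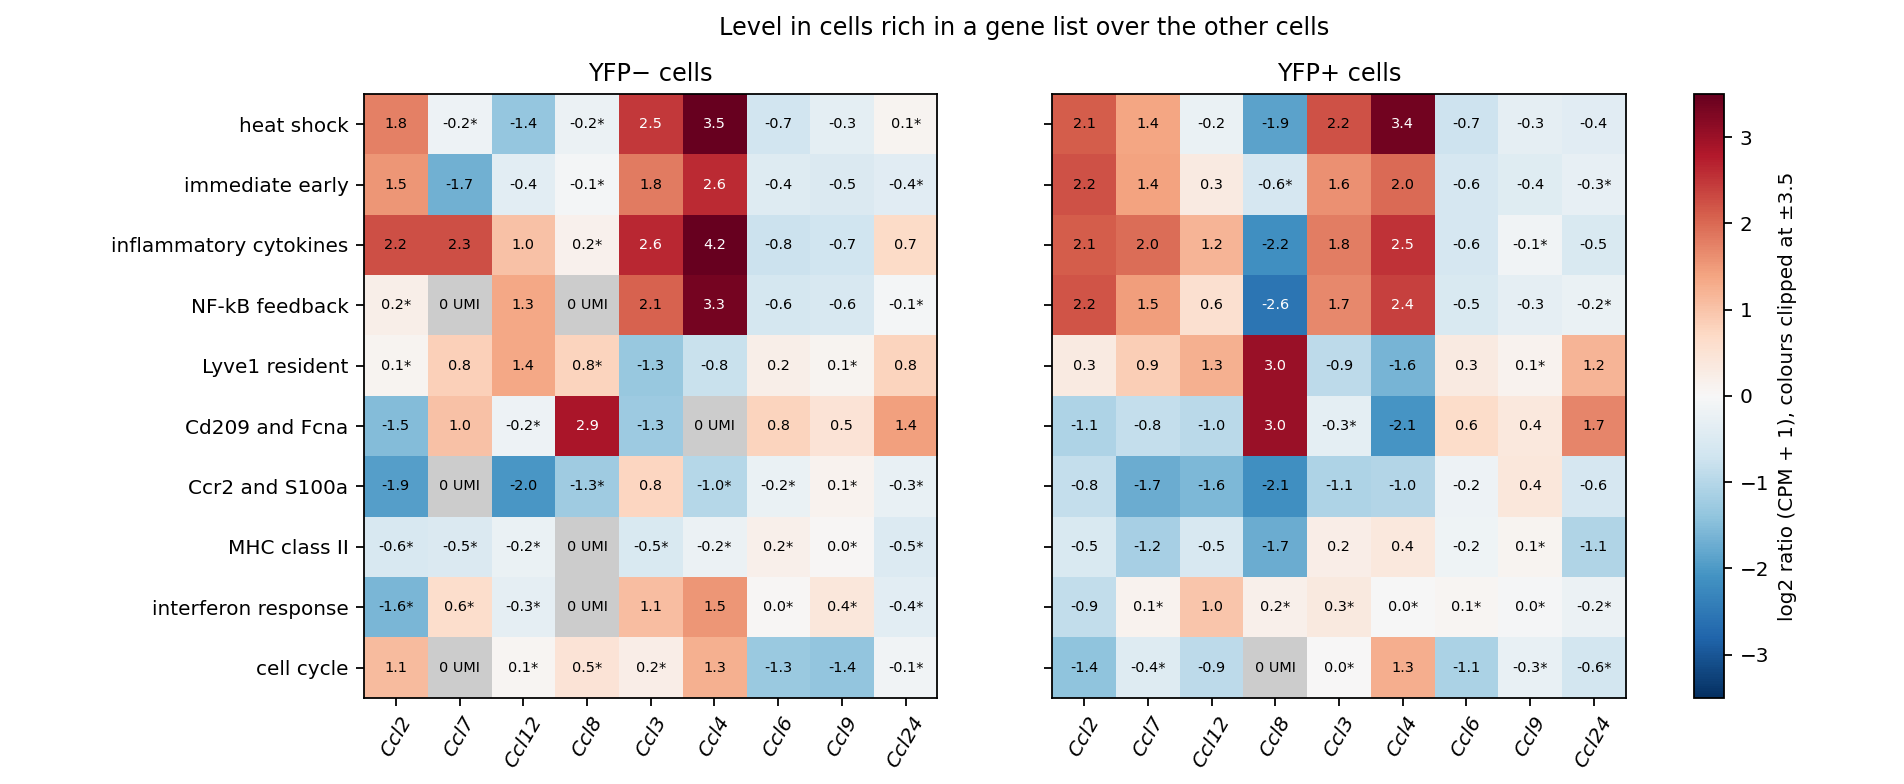
Log2 ratio of each ligand's level (CPM + 1) in cells rich in a gene list over the other cells of the same library, for YFP− (left) and YFP+ (right) cells. An asterisk marks an interval that includes 0, and grey squares mark no UMI in the rich cells; *Ccl2*, *Ccl3* and *Ccl4* are high in the heat shock, immediate early and inflammatory rows, *Ccl24* and *Ccl8* in the *Cd209* and *Fcna* row.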

How the data were processed

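Single-cell RNA was measured in 1 library of YFP− and 1 of YFP+ SN macrophages. The deposited values are UMI counts of each gene in each barcode, neither normalized nor filtered for cells. The authors obtained them with cellranger on GRCm38/mm10, from 10× Chromium Single-cell v2 libraries. The submitters' processing notes list Cell Ranger 3.0.2 and Seurat 2.2.0, and the methods give another version of cellranger.

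The files held 3653688 and 9365598 UMIs. Cells were barcodes with at least 500 UMIs and 200 genes. No doublet caller was run, and doublets were kept. The tools were pandas 2.3.3, numpy 2.4.6 and scipy 1.17.1 under Python 3.11.15, with matplotlib 3.10.9 for plots. Levels are CPM of summed counts with exact Poisson intervals. Ratios used CPM + 1 with exact binomial intervals, and shares have Clopper-Pearson intervals. Shares, Fano factors, correlations and list-rich cells used 500 UMIs drawn from each cell with a fixed seed, and a gene's level is bounded by 3 counts where it had none. With 1 library per condition, cells are not replicates, so no test was made.

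The ligands, marker lists and settings were chosen with earlier results of these data known. The genes named beside the ligands are those of the lists, the other CC ligands and receptors with at least 20 CPM in either library, and the 5 genes with the highest smaller r for each ligand. Some genes that this rule names are not reported here. *Ccl25*, *Ccl27a*, *Ccl1*, *Ccl20*, *Ccr3* and *Ccr8* were named after their values were seen, and TATAAA was added to the motifs after the sequences were seen. *Ccl19* and *Ccl21a* were not used, since each symbol stood on 2 rows. Alternatives varied the calling of cells, depth, weights, scaling, pseudocount, level filter, free RNA, correlation measure and list cutoff. The scripts were tested on simulated data.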

Additional observations from a re-analysis of the deposited data

Results flagged for a closer look

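In 7 cases a ligand was higher in cells rich in a gene list in one library and lower in the other, each beyond counting error. None of these differences between the libraries was tested, since each condition is 1 library, and intervals of many ligands and lists were compared. No such count was made over all genes, so whether 7 is many or few is not known. In cells with *Cd209* genes or *Fcna*, *Ccl7* had a log2 ratio over the other cells of 1.03 in YFP− and −0.84 in YFP+ cells. These rested on 18 and 17 *Ccl7* UMIs in the rich cells. In cells rich in the *Ccr2* and *S100a* list, *Ccl3* had 0.75 and −1.09. In cells with a cell cycle gene, *Ccl2* had 1.10 and −1.41, resting on 16 YFP− and 65 YFP+ cells, and 1 of the 16 held 12 of their 14 *Ccl2* UMIs. In cells rich in inflammatory genes, *Ccl24* had 0.67 and −0.54, and in YFP− cells 41.8% of its UMIs there came from 1 cell. In cells rich in immediate early genes, *Ccl7* had −1.68, on 6 UMIs in the rich YFP− cells, and 1.40, and *Ccl12* had −0.37 and 0.31. In cells rich in NF-κB feedback genes, *Ccl7* had no UMI in 42 YFP− cells, which gives −1.63 as an upper bound with 3 counts over these cells, and 1.45 in YFP+ cells.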

How the results depend on the processing

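No paired analysis was possible because each condition is 1 library and no test was made. The number of ligands at least 1.5-fold lower in YFP+ cells stayed at 2 in all 12 alternatives. The number at least 1.5-fold higher was 2 without the 5% of cells with most UMIs. It was 0 without cells rich in heat shock genes and 2 without cells rich in mural, Schwann, fibroblast or endothelial genes, both chosen after seeing the data. The second ligand was *Ccl2*, whose log2 ratio ranged from 0.29 to 0.61 over the alternatives. The share of cells with a ligand depended on depth, at 92.5% of YFP− and 88.5% of YFP+ cells without thinning and 86.3% and 85.3% at 1000 UMIs. The r of *Ccl2* and *Ccl7* in YFP− cells turned to −0.026 in cells of 1000 to 2000 UMIs. With list-rich cells limited to 5% of cells, *Ccl24* turned to 0.13 in *Ccr2*- and *S100a*-rich YFP+ cells and to −1.63 in inflammatory YFP− cells. Beside these 2, 84 ratios of list-rich over other cells stayed within their counting intervals at this limit and 58 moved beyond them. The 84 include all ratios of the *Cd209* and *Fcna* list. For that list the limit selected the same cells, so its ratios could not move and were not tested by it. Of the values of r under alternatives, 600 stayed within their 95% interval over cells and 119 moved further without turning, beside the 1 that turned, and the number of pairs with r of at least 0.1 stayed within 1.5 times in all 20. *Ccl8*, with 71 and 106 UMIs, is limited by depth.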
